A study of Homo sapiens with 6 samples.

Results

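A set of 42 genes of the mitotic spindle, the kinesin motors and cytokinesis was examined in the established cell line TFK-1, which derives from a human cancer of the bile duct outside the liver (extrahepatic cholangiocarcinoma, ECCA). The genes were chosen by symbol, and all 42 were measured, among 18336 genes on the array. They comprised 12 kinesins, 9 mitotic kinases with the subunits and activators that belong to them, 14 other spindle genes, 6 genes of the midbody and cleavage furrow, and MKI67, the gene of the proliferation antigen Ki-67. They were read by 52 probes (34 genes by 1 probe, 6 by 2 and 2 by 3), and each gene is given by its brightest probe, with the others beside it. Another 2 probes, which name AURKA or KIF4A together with a near-identical copy (AURKAPS1, KIF4B), were left out, and how far the probes used also read these copies is not known.

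Stable lines of TFK-1 made by lentiviral transduction and puromycin selection were compared. In 3 samples the virus carried HOXA5, a homeobox transcription factor, and 3 samples were normal controls. The authors name their control cells LV-HOXA5-NC, for a negative control virus, and the labels say only normal control. Total RNA of each sample was amplified, labelled with Cy5 and hybridized to 1 Human OneArray, a 1-colour array on which a probe's brightness reports the level of its transcript. The comparison asks what forced HOXA5 expression does to the transcripts of a cholangiocarcinoma line. Nothing in the sources tells whether a group's 3 samples were grown separately, so each p-value rests on a spread that could be technical, and 3 arrays per group limit the precision of every value.

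Cells that divide build a bipolar spindle from microtubules, hold chromosomes on it, pull them apart and then cleave. Kinesins walk along microtubules or take them apart, Aurora, Polo-like and NEK kinases time the steps, crosslinkers and nucleators shape the spindle, and the midbody is the bridge that is finally cut between daughter cells. Most of these transcripts are made late in the cell cycle, in G2 and mitosis, so in a growing culture their level also tracks how many cells are at that stage.

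Values below are log2 intensities after an offset of 50 and quantile normalization, and changes are log2 fold changes of HOXA5-overexpressing over control arrays with their standard error (SE). A gene rose or fell where limma's two-sided test, with Benjamini-Hochberg adjustment over all probes, gave an adjusted p under 0.05. The label of the overexpressed gene was checked first. A probe of HOXA5 read 9.09, 8.97 and 8.97 in the 3 HOXA5 arrays and 7.10, 7.27 and 6.85 in the 3 control arrays, a difference of 1.94 ± 0.12 (SE, limma adjusted p = 0.000766). It was dim on 1 of the control arrays, replicate 3. A second HOXA5 probe went the other way (-0.34 ± 0.07, limma adjusted p = 0.0253). Where the probes lie in the transcript is not given in the sources used here. Of the biliary markers of TFK-1, 5 of the 6 measured were detected on all 6 arrays, with a summed raw intensity of 59181 to 88437 in HOXA5 arrays and 53145 to 70741 in control arrays. KRT19, SOX9 and CDH1 of these rose. KRT7 (raw intensity 55 to 185, dim on 1 HOXA5 array) and KRT8 (103 to 281) were weak, and neither they nor EPCAM rose or fell. KRT19 (35520 to 57481) made up most of the biliary sum. Of 4 hepatocyte markers, the summed raw intensity was 511 to 1101 in HOXA5 arrays and 426 to 717 in control arrays. APOA1 and SERPINA1 were detected on all 6 arrays, TTR was dim on 2 HOXA5 arrays, and ALB was dim on every array. Of these 4, APOA1 alone rose and none fell. Of 4 immune markers, PTPRC and CD3E were dim on every array while CD14 and CD68 were detected on all 6 (summed raw intensity 447 to 1123 in HOXA5 arrays and 514 to 806 in control arrays). Of 5 fibroblast markers, COL1A1 was detected on all 6 arrays and the other 4 were dim on every array (699 to 1520 in HOXA5 arrays and 790 to 1191 in control arrays). Of 3 endothelial markers, VWF was detected on all 6 (summed raw intensity of the 3 markers 198 to 581 in HOXA5 arrays and 296 to 530 in control arrays). CDH5 was dim on 1 HOXA5 array, and PECAM1 on 2 HOXA5 arrays and 1 control array. None of the immune, fibroblast or endothelial markers rose or fell, and the part of the marker lists in the results below was not tested. A probe is called dim where its deposited flag differs from 0, which is given to probes from a raw intensity of 58 upward (67 on the array where it starts highest). Both arrays numbered 3 were dimmer than the rest, with a median raw intensity of 95 in HOXA5 replicate 3 and 126 in control replicate 3, against 166 to 180 in the other 4.

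Transcripts of most of these 42 spindle and cytokinesis genes were lower in HOXA5-overexpressing cells than in controls. Of the 42 genes, 31 fell and 0 rose by the adjusted p, and the fold change was negative for all 42. Among all genes 11% fell and 13.1% rose. No filter on brightness was set, and KIF18B alone of the 42 was dim on all 6 arrays. Of all 18336 genes, 4122 were dim on all 6, and the shares of all genes given here include them. A fall of at least 2-fold was called for 21 of the 42, against 2.39% of all genes, and a rise of that size for 0, against 3.83%. The median change of the set was -1.04, where the median of all genes was -0.01, and 32 of the 42 lay below -0.81, the 5th percentile of all genes. The 3 HOXA5 arrays all lay under the 3 control arrays for 37 of the 42, which held for 20.4% of all genes. In bulk samples of this kind, fewer cells in mitosis and less of each transcript per cell cannot be told apart.

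The 31 genes that fell ranged from DLGAP5 at -1.86 ± 0.07 to CIT at -0.34 ± 0.08, and 10 of them changed by less than 2-fold. Their standard errors were 0.06 to 0.33. The other 11 genes did not pass the test. Of these, 7 also lay below the 5th percentile of all genes, with standard errors of 0.26 to 0.60. Without both arrays numbered 3, which left 2 arrays per group, 15 of the 42 fell, and 402 genes fell in the whole table in place of 2010. Without both arrays numbered 2, 30 of the 42 fell, and 1546 genes in the whole table. Both of these settings were chosen after the data were seen.

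**Figure D1:**
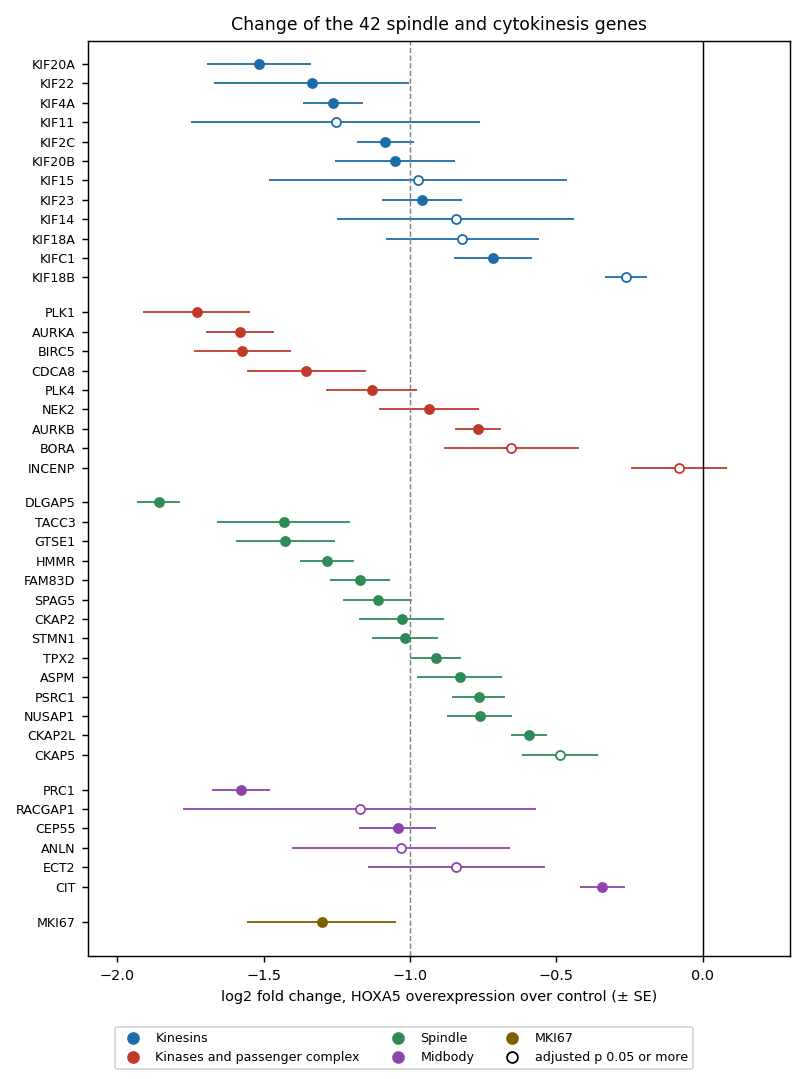
Log2 fold change (x axis, HOXA5-overexpressing over control, points with SE bars) of each of the 42 genes, grouped and coloured by role and ordered by size. Filled points passed the adjusted p, open points did not, and the dashed line marks a 2-fold fall. All 42 points lie left of 0, from -1.86 for DLGAP5 to -0.08 for INCENP. KIF18B was dim on all 6 arrays, so its point gives no measured fold.

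Arrays of a group agreed closely for some genes and less so for others. For DLGAP5, TPX2, PRC1 and KIF4A the 3 HOXA5 arrays lay close together and well under the 3 control arrays. For KIF11, KIF15, RACGAP1 and ANLN, HOXA5 replicate 2 lay far under the other HOXA5 arrays and control replicate 2 was the lowest of the controls.

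**Figure D2:**
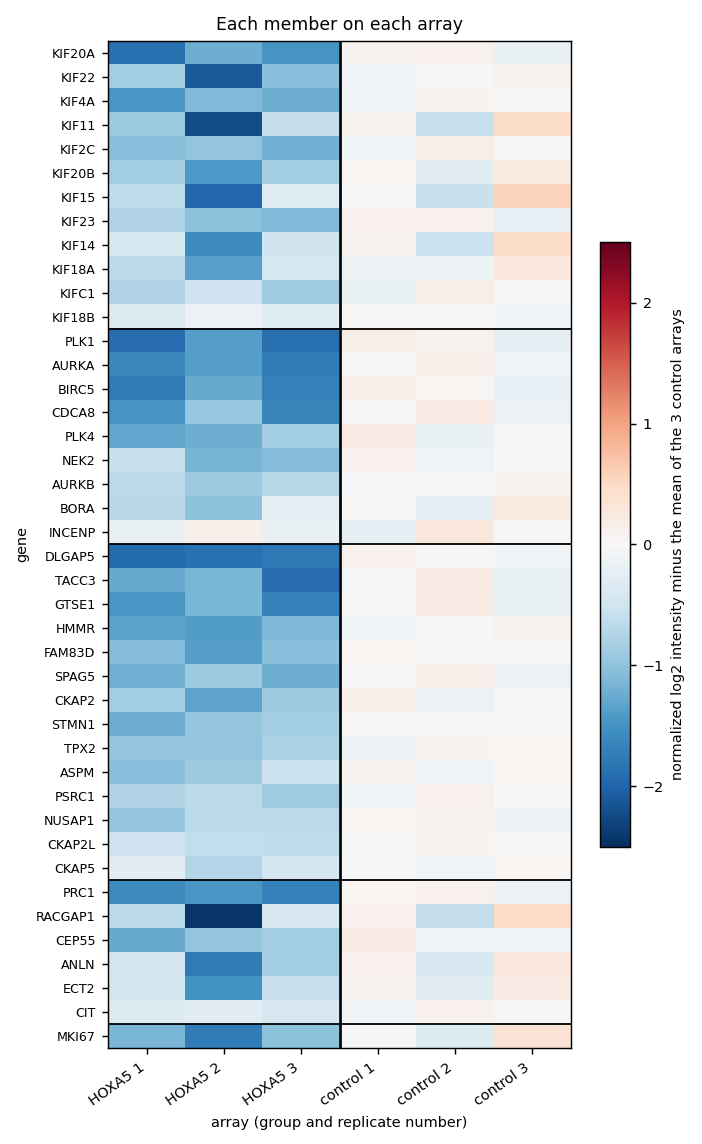
Each gene (rows, grouped by role) on each of the 6 arrays (columns, HOXA5 arrays left of the control arrays). Colour gives the normalized log2 intensity minus the mean of the 3 control arrays, blue for lower. The HOXA5 columns are blue for nearly the whole set, and RACGAP1 and KIF11 are darkest in HOXA5 replicate 2.

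Promoters of these genes were read next. The motif shares below describe the set of genes and are not a measure of its response to HOXA5. Many G2 and mitosis genes are known to carry a cell cycle genes homology region (CHR), which the MuvB complex binds with B-MYB (the product of MYBL2) or FOXM1, downstream of CCAAT boxes bound by NF-Y. RefSeq promoter windows of 300 bases (GRCh38.p14, 250 bases before to 50 after the start of transcription) were found by symbol for 37 of the 42 genes, in 44 windows, but not for AURKA, TPX2, RACGAP1, BIRC5 and FAM83D. Both strands were searched for CHR (TTTGAA), the CCAAT box (CCAAT), the E2F sites TTTCCCGC, TTTCGCGC, TTTGCCGC and TTTGGCGC, and the E-box bound by MYC and by MXD1 with their partner MAX (CACGTG).

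A CHR match was found for 28 of the 37 genes (75.7%), against 15.9% of array genes with such a window and 18.2% of all genes in the RefSeq table. A CCAAT box was found for 31 of 37 (83.8%), against 42.3% and 39.7%. Both stood in 1 window for 24 genes (64.9%), against 6.56% of array genes. E2F sites were found for 3 of the 37 (8.11%, against 5.46% of array genes) and E-boxes for 3 (8.11%, against 11%). The first base of the CHR matches had a median position of -26 relative to the start, and that of the CCAAT boxes -70. A CHR beginning between -60 and 50 was held by 26 of 37 genes (70.3%, against 5.14% of array genes), and a CCAAT box beginning between -120 and -1 by 30 (81.1%, against 28.3%). These position windows were chosen after the matches were seen. Matches of different motifs overlapped in 2 genes, MKI67 and CDCA8. A match is a run of letters and not a shown binding site. Other spellings were not searched, so a gene without a match is not shown to lack a site.

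The 150 bases before the start are printed below, 5′ to 3′ on the gene's strand, for genes that the results turn on, with CHR and CCAAT box matches in capitals (on the opposite strand these read TTCAAA and ATTGG). PLK1, PRC1, KIF4A and MKI67 are shown as genes that fell and hold both motifs, DLGAP5 as the largest fall, KIF20A for CCAAT boxes without a CHR match, TACC3 for neither, and INCENP for both motifs in a gene that did not pass the test. The windows are PLK1 at chr16:23678739-23678888 (+), PRC1 at chr15:90994536-90994685 (-), KIF4A at chrX:70289954-70290103 (+), MKI67 at chr10:128126424-128126573 (-), DLGAP5 at chr14:55191586-55191735 (-), KIF20A at chr5:138178962-138179111 (+), TACC3 at chr4:1720481-1720630 (+) and INCENP at chr11:62123861-62124010 (+).
PLK1: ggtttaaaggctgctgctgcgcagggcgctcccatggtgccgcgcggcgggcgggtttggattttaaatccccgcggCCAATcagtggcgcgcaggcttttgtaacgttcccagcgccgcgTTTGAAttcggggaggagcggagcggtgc
PRC1: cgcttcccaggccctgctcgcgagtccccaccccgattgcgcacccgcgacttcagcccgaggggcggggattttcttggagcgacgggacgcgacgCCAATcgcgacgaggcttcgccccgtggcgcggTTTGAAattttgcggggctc
KIF4A: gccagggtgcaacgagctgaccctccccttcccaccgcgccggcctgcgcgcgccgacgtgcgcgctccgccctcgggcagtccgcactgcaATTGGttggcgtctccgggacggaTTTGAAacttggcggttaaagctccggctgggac
MKI67: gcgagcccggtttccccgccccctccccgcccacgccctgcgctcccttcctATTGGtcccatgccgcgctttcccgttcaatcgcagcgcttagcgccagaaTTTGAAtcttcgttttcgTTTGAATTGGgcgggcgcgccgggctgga
DLGAP5: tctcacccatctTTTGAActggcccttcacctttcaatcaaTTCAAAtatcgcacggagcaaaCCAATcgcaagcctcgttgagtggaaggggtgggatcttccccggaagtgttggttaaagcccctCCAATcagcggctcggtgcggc
KIF20A: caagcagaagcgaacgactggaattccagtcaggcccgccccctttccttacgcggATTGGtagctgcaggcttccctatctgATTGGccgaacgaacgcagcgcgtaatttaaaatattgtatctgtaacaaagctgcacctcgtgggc
TACC3: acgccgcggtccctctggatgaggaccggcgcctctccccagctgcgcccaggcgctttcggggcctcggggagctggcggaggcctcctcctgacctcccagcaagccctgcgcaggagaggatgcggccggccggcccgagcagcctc
INCENP: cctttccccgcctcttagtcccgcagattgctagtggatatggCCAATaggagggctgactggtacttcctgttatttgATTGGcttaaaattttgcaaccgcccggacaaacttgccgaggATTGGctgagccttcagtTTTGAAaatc

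In PLK1, PRC1 and KIF4A 1 CCAAT box stands upstream of 1 CHR match close to the start. In MKI67 the CHR nearest the start runs into an inverted CCAAT box. DLGAP5 holds a further CHR match at 4 to 9, past the start and so outside the printed bases. INCENP has 3 CCAAT boxes and 1 CHR match at -10 and a fold change of -0.08. Among the genes with a window, 18 of the 28 with a CHR match fell (median change -1.0) and so did 9 of the 9 without one (median -1.03). For CCAAT boxes, 23 of 31 genes with one fell (median -0.96) and 4 of 6 without (median -1.06). KIF2C, CKAP2 and TACC3 held a match to neither, and all 3 fell.

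**Figure D3:**
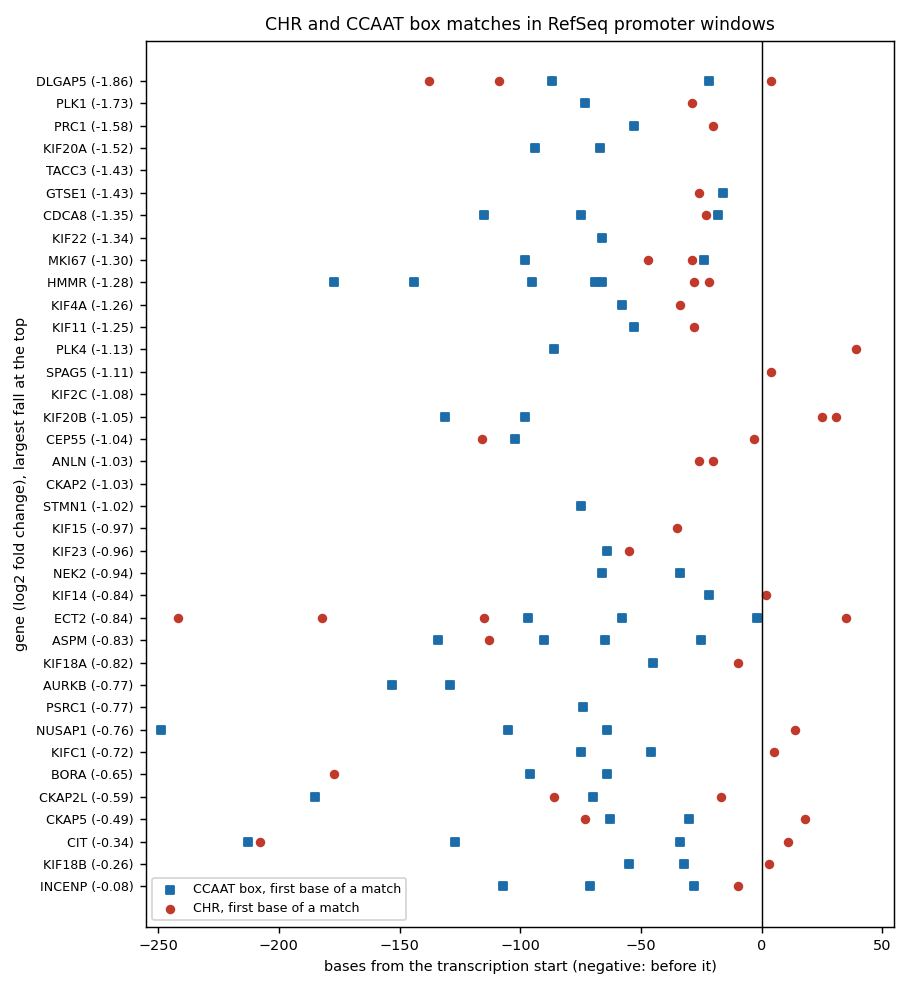
First base of each CHR match (red circles) and CCAAT box match (blue squares) relative to the start of transcription (x axis, bases) for the 37 genes with a RefSeq promoter window. Genes run down the page from DLGAP5 (-1.86) to INCENP (-0.08) by log2 fold change. CHR matches gather near the start (median -26) and CCAAT boxes upstream of them (median -70), along the whole range of changes.

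Of the 12 kinesins, 7 fell, 5 of them by at least 2-fold, and the median change was -1.01. KIF20A, a motor that brings the chromosomal passenger complex to the central spindle, read 10.93, 11.57 and 11.32 in HOXA5 arrays and 12.85, 12.89 and 12.63 in control arrays. The groups were more than a unit apart, and the change was -1.52 ± 0.18 (limma adjusted p = 0.00402). KIF22, a chromosome-bound motor that pushes chromosome arms outward, read 13.07, 11.82 and 12.88 in HOXA5 arrays and 13.85, 13.92 and 14 in control arrays. Its change of -1.34 ± 0.33 passed narrowly (limma adjusted p = 0.0428), with HOXA5 replicate 2 far below the other HOXA5 arrays. It no longer passed with HOXA5 replicate 3 left out (limma adjusted p = 0.0728), nor with any control array left out (0.118 to 0.125). A second, dimmer KIF22 probe read 9.18, 9.27 and 8.94 in HOXA5 arrays and 10.81, 11.10 and 10.80 in control arrays, with a tighter change of -1.77 ± 0.13 (limma adjusted p = 0.00106). KIF4A, a chromokinesin that also limits the growth of midzone microtubules, read 8.36, 8.71 and 8.60 in HOXA5 arrays and 9.75, 9.89 and 9.82 in control arrays. Its groups were well apart (change -1.26 ± 0.10, limma adjusted p = 0.00149).

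Smaller falls were those of KIF2C, a microtubule depolymerase at centromeres (-1.08 ± 0.10), KIF20B, a late cytokinesis motor (-1.05 ± 0.21), KIF23, the motor subunit of centralspindlin (-0.96 ± 0.14), and KIFC1, a minus-end motor that clusters spindle poles (-0.72 ± 0.13). KIF20B lost its call without control replicate 1 (limma adjusted p = 0.0825) or 3 (0.0690). KIFC1 lost its call without HOXA5 replicate 1 (0.0578) or control replicate 2 (0.0564) or 3 (0.0615).

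The remaining 5 kinesins did not pass. KIF11 (Eg5), the motor that pushes spindle poles apart and the target of antimitotic compounds, read 10.29, 8.99 and 10.62 in HOXA5 arrays and 11.31, 10.66 and 11.68 in control arrays. The groups did not overlap, but the array numbered 2 was the lowest in each, and the change was -1.25 ± 0.49 (limma adjusted p = 0.144). KIF14, which works with citron kinase at the midbody, read 7.53, 6.39 and 7.49 in HOXA5 arrays, the second of them dim, and 8.05, 7.44 and 8.45 in control arrays. KIF15, which backs up KIF11, read 8.44, 7.11 and 8.77 in HOXA5 arrays and 9.08, 8.53 and 9.63 in control arrays. Both pairs of groups overlapped (KIF14 -0.84 ± 0.40, limma adjusted p = 0.218; KIF15 -0.97 ± 0.51, limma adjusted p = 0.255). KIF18A, which damps chromosome movement at the metaphase plate, read 7.81, 7.11 and 8.03 in HOXA5 arrays and 8.34, 8.34 and 8.73 in control arrays. Its groups did not overlap and its change was -0.82 ± 0.26 (limma adjusted p = 0.0864). KIF18B, a motor that shortens astral microtubules, was dim on all 6 arrays, at 6.23, 6.41 and 6.26 in HOXA5 arrays and 6.60, 6.58 and 6.50 in control arrays, so no fold is given.

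Among the 9 kinases and their partners 7 fell, 5 of them by at least 2-fold, with a median change of -1.13. PLK1, the Polo-like kinase of mitotic entry and spindle assembly, read 8.40, 8.93 and 8.42 in HOXA5 arrays and 10.46, 10.40 and 10.08 in control arrays. Its groups lay over a unit apart, with a change of -1.73 ± 0.18 that is 3.31-fold lower (limma adjusted p = 0.00297). AURKA, the Aurora kinase of centrosomes and spindle poles, read 12, 12.24 and 11.88 in HOXA5 arrays and 13.59, 13.75 and 13.51 in control arrays. It was 2.99-fold lower (-1.58 ± 0.12, limma adjusted p = 0.00117). BIRC5 (survivin), which docks the chromosomal passenger complex on chromatin and is also known as an inhibitor of apoptosis, read 11.73, 12.23 and 11.80 in HOXA5 arrays and 13.64, 13.54 and 13.29 in control arrays. All 3 BIRC5 probes were detected and fell, the brightest with a change of -1.57 ± 0.16 (limma adjusted p = 0.00289) and the others with -1.52 ± 0.25 and -1.66 ± 0.11.

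The chromosomal passenger complex joins AURKB with INCENP, BIRC5 and borealin (CDCA8). CDCA8 fell by 1.35 ± 0.20. AURKB, the kinase itself, fell by 0.77 ± 0.08, and its second probe gave -0.80 ± 0.13. INCENP, the scaffold that activates the kinase, read 7.41, 7.73 and 7.41 in HOXA5 arrays and 7.36, 7.88 and 7.54 in control arrays. These overlap throughout, and the change was -0.08 ± 0.16 (limma adjusted p = 0.798). The difference between INCENP and its partners was not tested.

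PLK4, the kinase of centriole duplication, fell by 1.13 ± 0.16. NEK2, which loosens the link between centrosomes, fell by 0.94 ± 0.17, but it missed the threshold when HOXA5 replicate 3 (limma adjusted p = 0.0535) was left out, as it did when any control array was (0.0508 to 0.0718). Another detected NEK2 probe gave -1.39 ± 0.13, and the remaining one was dim on every array. BORA, the cofactor through which Aurora A activates PLK1, was read by probes that differ in call. The brighter probe read 10.69, 10.35 and 11.14 in HOXA5 arrays and 11.41, 11.13 and 11.60 in control arrays, and its groups overlapped (-0.65 ± 0.23, limma adjusted p = 0.111). The other read 8.82, 8.86 and 8.51 in HOXA5 arrays and 10.23, 9.92 and 9.84 in control arrays, without overlap (-1.27 ± 0.14, limma adjusted p = 0.00371). Without HOXA5 replicate 3 the brighter probe passed as well (0.0464).

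**Figure D4:**
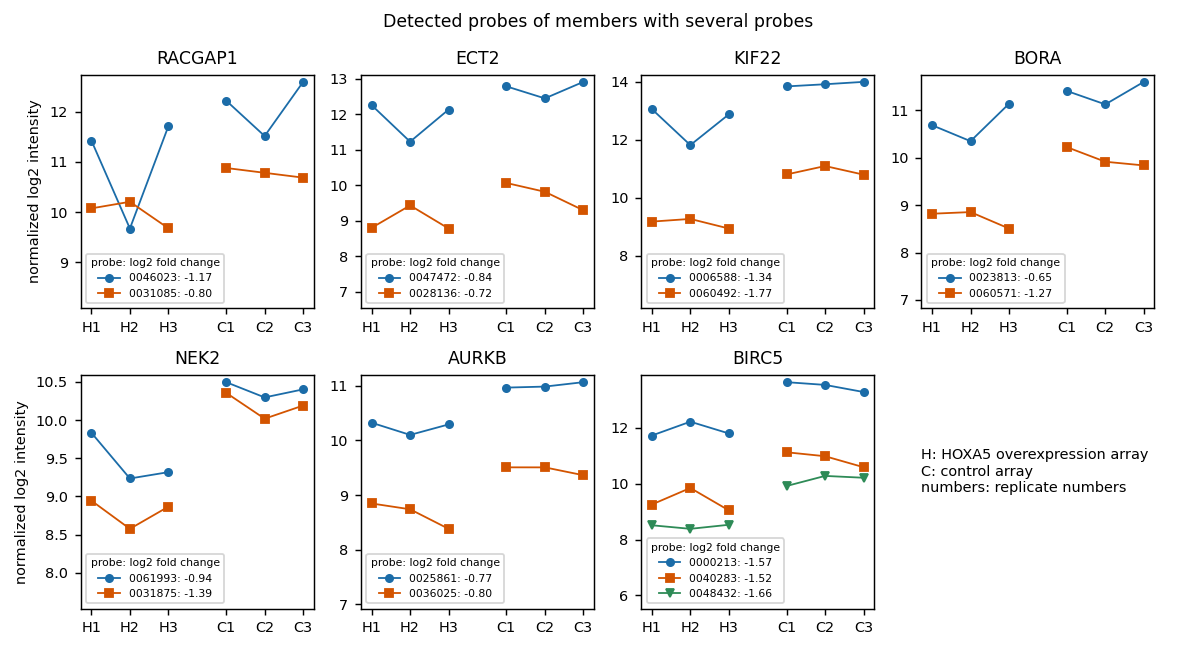
Normalized log2 intensity (y axis) of every probe detected on all arrays, for the 7 genes with more than 1 such probe, on HOXA5 arrays (H1 to H3) left of control arrays (C1 to C3). Lines join arrays of 1 group and carry no order, and the key gives each probe's log2 fold change. The RACGAP1 probe at -1.17 drops on H2 and C2 while the probe at -0.80 does not.

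Of the 14 other spindle genes 13 fell, 8 of them by at least 2-fold, and the median change was -1.02. In all 14 the HOXA5 arrays lay under the control arrays. DLGAP5 (HURP), which stabilizes the microtubules that hold chromosomes, read 9.62, 9.68 and 9.75 in HOXA5 arrays and 11.66, 11.49 and 11.48 in control arrays. Its arrays lay close together within each group, and it was 3.63-fold lower (-1.86 ± 0.07, limma adjusted p = 0.000324). TACC3, which with CKAP5 and clathrin bridges spindle microtubules, read 10.26, 10.39 and 9.62 in HOXA5 arrays and 11.50, 11.73 and 11.34 in control arrays (-1.43 ± 0.23, limma adjusted p = 0.0103). HOXA5 replicate 3 was the lowest, and the groups were clearly apart. GTSE1, which restrains KIF2C and also p53, read 10.09, 10.41 and 9.86 in HOXA5 arrays and 11.55, 11.73 and 11.36 in control arrays (-1.43 ± 0.17, limma adjusted p = 0.00416).

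Falls of at least 2-fold were also called for HMMR, a spindle pole protein and hyaluronan receptor (-1.28 ± 0.09), FAM83D, which brings a kinesin to the spindle (-1.17 ± 0.10), SPAG5 (astrin), which guards kinetochore attachment (-1.11 ± 0.12), CKAP2, which stabilizes microtubules (-1.03 ± 0.15), and STMN1 (stathmin), which sequesters tubulin (-1.02 ± 0.11). A second STMN1 probe was dim on every array. Below 2-fold, TPX2, which activates Aurora A and nucleates microtubules, fell by 0.91 ± 0.09. ASPM, a spindle pole protein mutated in primary microcephaly, fell by 0.83 ± 0.14, and lost its call without control replicate 1 (limma adjusted p = 0.0628) or 3 (0.0538). PSRC1 at -0.77 ± 0.09, NUSAP1, a microtubule bundler, at -0.76 ± 0.11, and CKAP2L at -0.59 ± 0.06 completed the list. CKAP5 (ch-TOG), a microtubule polymerase that cells also use outside mitosis, read 11.39, 10.90 and 11.17 in HOXA5 arrays and 11.66, 11.58 and 11.69 in control arrays. The groups did not overlap, and the change of -0.49 ± 0.13 just missed the threshold (limma adjusted p = 0.0517). It passed without HOXA5 replicate 1 (0.0276) or 2 (0.0424).

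Of the 6 midbody and furrow genes, 3 fell, 2 of them by at least 2-fold, and the median change was -1.04. PRC1, the crosslinker of antiparallel midzone microtubules, read 10.86, 11.01 and 10.77 in HOXA5 arrays and 12.51, 12.56 and 12.31 in control arrays. It was 2.98-fold lower, with little spread in either group (-1.58 ± 0.10, limma adjusted p = 0.000807). CEP55, which recruits the abscission machinery to the midbody, read 10.50, 10.78 and 10.89 in HOXA5 arrays and 11.94, 11.69 and 11.66 in control arrays (-1.04 ± 0.13, limma adjusted p = 0.00509). CIT (citron kinase), an organizer of the midbody, read 9.46, 9.55 and 9.39 in HOXA5 arrays and 9.74, 9.91 and 9.76 in control arrays. Its change was small (-0.34 ± 0.08, limma adjusted p = 0.0296), and the call was lost when any array but HOXA5 replicate 2 was left out (adjusted p 0.0734 to 0.0868).

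The other 3 genes organize RhoA and the contractile ring, and none passed. ANLN (anillin), the ring scaffold, read 10.83, 9.54 and 10.44 in HOXA5 arrays and 11.41, 10.90 and 11.59 in control arrays. The groups did not overlap, and the change was -1.03 ± 0.37 (limma adjusted p = 0.117). ECT2, the exchange factor that activates RhoA at the furrow, read 12.26, 11.23 and 12.13 in HOXA5 arrays and 12.79, 12.45 and 12.91 in control arrays, again without overlap (-0.84 ± 0.30, limma adjusted p = 0.115). A second ECT2 probe gave -0.72 ± 0.27, with groups that overlapped by 1 pair of arrays. RACGAP1, the partner of KIF23 in centralspindlin, read 11.42, 9.67 and 11.71 in HOXA5 arrays and 12.22, 11.51 and 12.59 in control arrays. HOXA5 replicate 2 was the lowest by far, the groups overlapped, and the change was -1.17 ± 0.60 (limma adjusted p = 0.249). The second RACGAP1 probe read 10.08, 10.21 and 9.68 in HOXA5 arrays and 10.88, 10.78 and 10.69 in control arrays, and it fell (-0.80 ± 0.15, limma adjusted p = 0.0176).

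MKI67, whose product coats mitotic chromosomes and marks cells in cycle, read 10.41, 9.80 and 10.51 in HOXA5 arrays and 11.53, 11.20 and 11.89 in control arrays. The groups did not overlap and it fell by 1.30 ± 0.25 (limma adjusted p = 0.0201). It no longer passed with HOXA5 replicate 1 left out (limma adjusted p = 0.0509), nor with control replicate 1 (0.0766) or 3 (0.0596) left out.

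The arrays numbered 2 recur among the genes with a wide spread. In 6 of the 42 genes (14.3%), KIF11, KIF14, KIF15, ANLN, RACGAP1 and MKI67, the array numbered 2 lay at least 0.5 below the mean of replicates 1 and 3 in both groups, against 3.52% of all genes. MYC, which is no member, read 10.07, 9.09 and 10.49 in HOXA5 arrays and 10.53, 9.72 and 10.90 in control arrays, low on both arrays numbered 2 (change -0.50 ± 0.46, limma adjusted p = 0.527). The threshold of 0.5 was set after the values were seen. Without both arrays numbered 2, KIF11 (-1.04, limma adjusted p = 0.0440), ANLN (-0.87, 0.0475) and ECT2 (-0.65, 0.0264) passed, while KIF23 (-0.88, 0.0574), NEK2 (-0.87, 0.0672), ASPM (-0.84, 0.0689) and CIT (-0.33, 0.0541) no longer did. A term for the replicate number, fitted beside the group over all probes, passed at a limma adjusted p under 0.05 in 0 of the 42 genes and 0 of all 18336. With 6 arrays that fit can miss real differences. What the arrays numbered 2 share was not tested.

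Other genes of the same machinery, none of them among the 42, were counted in the same way, beside the 11% of all genes that fell and the 13.1% that rose. Of 34 other kinesins and their light chains or adaptors, most of which carry cargo outside mitosis, 2 fell (5.88%) and 6 rose (17.6%). Their median was 0.10, and 8 of them were dim on all 6 arrays. Among those that passed, the largest changes were rises of KIF21B (1.17 ± 0.12), KIF5C (1.09 ± 0.08), motors known mainly from neurons, and the light chain KLC3 (1.05 ± 0.09). Of 32 genes of the centrosome and of microtubule nucleation 8 fell (25%) and 0 rose, with a median of -0.43. HAUS1, an augmin subunit that branches spindle microtubules, fell by 1.69 ± 0.10, CDK5RAP2, a pericentriolar scaffold, fell by 0.84 ± 0.10, and STIL, a centriole duplication factor, fell by 0.83 ± 0.12.

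In the list of the cytokinetic ring and abscission, 4 of 32 measured genes fell and 4 rose (12.5% each, median -0.01), close to the shares of all genes. The ESCRT ATPase VPS4A was higher by 1.73 ± 0.17, SEPTIN6 by 1.54 ± 0.10, and the formin DIAPH3 fell by 1.31 ± 0.25. The rise of VPS4A is against a probe that was dim on 1 of the 3 control arrays, and 2 other detected SEPTIN6 probes gave 0.38 ± 0.37 and 0.22 ± 0.09. In the list of microtubule dynamics and dynein, 6 of 38 fell (15.8%) and 3 rose (7.89%, median -0.13). RANGAP1 (-0.83 ± 0.13), RCC1 (-0.82 ± 0.08) and RAN (-0.72 ± 0.10), which set up the Ran gradient around chromosomes, had the largest changes among those that passed. In that of other kinases of these families and of mitosis, 6 of 22 fell (27.3%) and 3 rose (13.6%, median -0.08). PLK3, a stress-responsive Polo-like kinase, rose by 1.60 ± 0.14, while PBK (-1.24 ± 0.15) and the histone kinase HASPIN (-1.21 ± 0.14), dim on 1 of the HOXA5 arrays, fell.

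Regulators that act on CHR, E2F and CCAAT promoters were measured for 16 of 17 genes, of which 5 fell (31.2%) and 0 rose (median -0.23). FOXM1, the forkhead activator of G2 and mitosis genes, read 7.59, 7.95 and 7.85 in HOXA5 arrays and 9.83, 9.86 and 9.82 in control arrays, 4.11-fold lower (-2.04 ± 0.10, limma adjusted p = 0.000533). MYBL2 read 8.54, 9.29 and 8.53 in HOXA5 arrays and 10.37, 10.48 and 10.14 in control arrays (-1.54 ± 0.23, limma adjusted p = 0.00893). TFDP1, the dimer partner of E2F proteins, fell by 0.86 ± 0.17. MXD1, which competes with MYC for MAX, is not in that list. Its brightest probe read 9.05, 9.33 and 9.22 in HOXA5 arrays and 8.06, 8.15 and 7.97 in control arrays. It rose by 1.14 ± 0.09 (limma adjusted p = 0.00152), and the other MXD1 probes were dim on every array. Whether MXD1 or any of these regulators bears on the spindle genes was not tested.

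**Figure D5:**
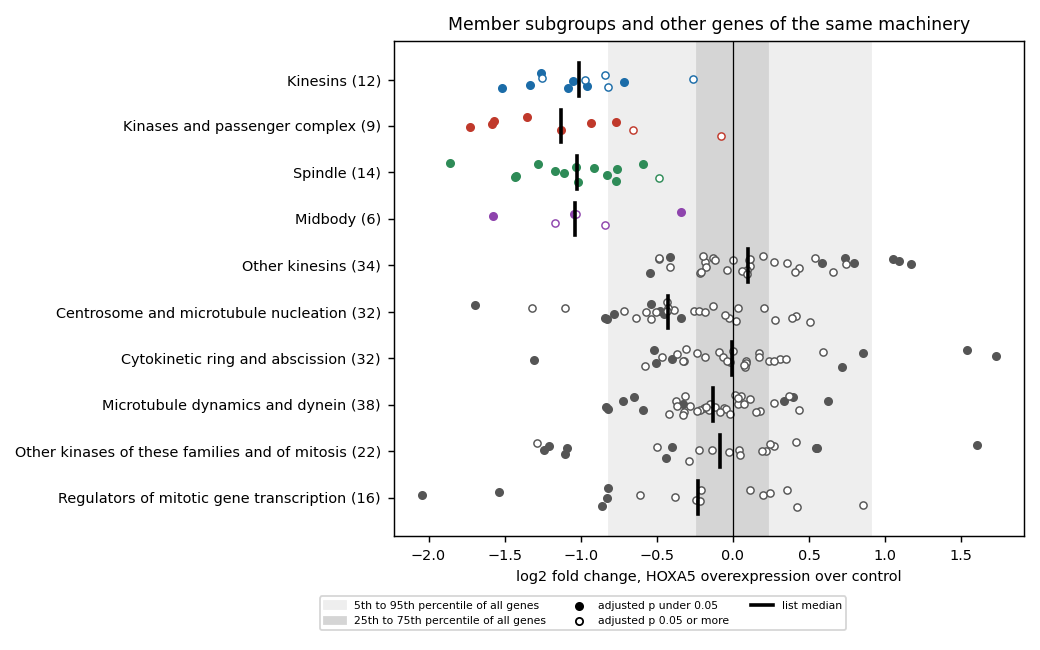
Log2 fold change (x axis, HOXA5-overexpressing over control) of the genes of the 4 member subgroups (coloured, top) and of the 6 lists of other genes (grey, below), with the number of genes in brackets and a bar at each median. Filled points passed the adjusted p, and shading spans the middle of all genes. Member medians lie between -1.13 and -1.01, and those of the other lists between -0.43 and 0.10.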

How the data were processed

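Gene expression was measured in 6 samples of TFK-1 cells, 3 with HOXA5 overexpression and 3 normal controls by the genotype in the labels, on 1-colour arrays. The authors deposited a raw intensity per probe and array with a detection p-value, which was not used, and a flag, used as a score with 2 values whose meaning is not given in the sources used here. A second deposited table of intensity, made with GeneSpring per the methods, equalled the raw values times 1 constant per array (0.9077 to 1.128), and the origin of the constants is not known.

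For the tests, log2(raw intensity + 50) was quantile normalized. The offset of 50 makes the fold changes of dim genes come out too small. limma 3.58.1 (R 4.3.3, lmFit, then eBayes) was run on all 31741 probes with Benjamini-Hochberg adjustment over all of them. A 2-fold call adds a limit of 1 on the absolute log2 fold change to the adjusted p threshold of 0.05, both taken from the methods. Of the probes, 24740 carried 1 gene symbol in the platform table, 977 several and 6024 none. Each gene was read from its brightest single-symbol probe (mean of the 6 arrays). Values per array are given for the 3 genes of each subgroup that changed most among those that passed, for each gene that did not pass, for MKI67 and where detected probes differ in call, and up to 3 genes are named of each list of other genes. Promoter windows came from RefSeq (GRCh38.p14). The 42 genes, the lists and the tests were chosen with earlier results of these data known. The fit was also run on simulated data, with noise drawn independently for each probe and array and changes planted in brighter probes only. That run does not cover deviations that arrays have in common, or dim probes. Other scalings, offsets, filters, tests and left-out arrays were tried, 20 settings in all.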

Additional observations from a re-analysis of the deposited data

How the results depend on the processing

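Of the 31 genes that fell, 24 kept their call with any 1 array left out and 14 under all 20 settings: KIF2C, KIF4A, AURKA, PLK1, BIRC5, TPX2, HMMR, DLGAP5, TACC3, SPAG5, STMN1, GTSE1, FAM83D and PRC1. CIT lost its call in 14. None of the 42 rose in any setting, the median of the 42 stayed between -1.13 and -0.88, and 41 had a negative change throughout. INCENP ranged from -0.20 without control replicate 1 to 0.062 without control replicate 2, the setting that turned its sign (limma adjusted p = 0.843). With 1 array left out, 24 to 33 of the 42 fell, 15 to 20 by at least 2-fold, with a median of -1.11 to -0.88. Of all genes, 1073 (without control replicate 1) to 2624 (without HOXA5 replicate 2) fell in those fits, against 2010 in the main fit. The falls included 4 to 8 kinesins, 6 to 7 kinases, 12 to 14 spindle genes and 2 to 3 midbody genes. The HOXA5 change was 1.83 to 2.03. In those fits the other lists gave 0 to 3 lower and 4 to 8 higher for other kinesins, 6 to 9 and 0 to 2 for the centrosome, 1 to 4 and 3 to 5 for the ring, 4 to 11 and 0 to 3 for dynamics, 4 to 6 and 2 to 5 for other kinases, and 2 to 6 and 0 to 2 for regulators. Without both arrays numbered 3, 15 of the 42 fell, 13 by at least 2-fold, while 402 of all genes fell. Among the 15 were 2 kinesins, 3 kinases and 1 midbody gene. The lists then had 0 lower and 2 higher (other kinesins), 2 lower (centrosome), 0 lower (ring), 1 lower and 0 higher (dynamics), 1 and 1 (other kinases) and 1 lower (regulators). That setting has 2 arrays per group. Without both arrays numbered 2, dynamics had 1 higher.

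On the authors' values 26 of the 42 fell, against 1047 of all genes. Other kinesins had 0 lower and 3 higher, the centrosome 3 lower, the ring 2 and 2, dynamics 3 and 0, other kinases 1 higher and regulators 2 lower. Median and 75th percentile scaling each gave 1 other kinesin lower and 1 dynamics gene higher. Cyclic loess gave 1 centrosome gene and 2 regulators higher. An offset of 100, and likewise the filter on dim probes, gave 1 regulator higher, and a trend on mean intensity 1 other kinesin lower. Array weights gave 1 centrosome gene, 5 other kinases and 1 regulator higher. The mean of a gene's probes gave 5 midbody genes, 4 other kinesins and 2 ring genes lower and 1 regulator higher. The methods' t-test gave 24 of the 42 lower after Benjamini-Hochberg, 33 at its unadjusted threshold and 21 with the 2-fold limit as well, against 1192, 2909 and 456 of all 18336 genes. Of its adjusted calls 4 were kinesins, with 0 other kinesins, 1 ring gene and 2 regulators lower. Where a cause is not part of the setting itself, the cause was not tested.

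With the replicate number as a block, 40 of the 42 fell, 24 by at least 2-fold. Of all 18336 genes, 13.9% then fell, 486 of the 18336 by at least 2-fold. Among the 40 were 11 kinesins and 6 midbody genes. Of the other lists, 4 other kinesins and 13 centrosome genes were then lower, and 1 centrosome gene and 2 regulators higher. The labels do not say that a number marks a shared culture or day. Deviations of same-numbered arrays from their group means correlated at -0.11, 0.57 and 0.64 across all probes. HOXA5 replicate 1 correlated best with control replicate 3 (0.35). Deviations cancel out within a group, so these values are not independent and cannot settle whether the numbers mark pairs. The main fit did not take them as pairs.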
